A study of Nasonia vitripennis with 7 samples.

Results

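Clustered DSX peaks are places in the genome of the parasitoid wasp Nasonia vitripennis where the transcription factor Doublesex (DSX) pulled down naked DNA at several neighbouring points. A peak was counted as clustered when another summit on the same scaffold lay under 5000 bases away, and clustered peaks were chained into clusters. Of the 2307 peaks in the authors' list, 284 (12.3%) met this rule, and they formed 136 clusters on 53 of the 81 scaffolds with a peak. The other 2023 peaks stood alone at this distance. The summit positions that chose the clustered peaks come from the comparison of DSX with luciferase, and so does peak strength, so the spacing and the strength below are descriptions without tests.

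The study used DAP-seq, a method that enriches a library of genomic DNA on a matrix loaded with a protein made outside cells. The DNA was extracted from whole bodies of AsymCX wasps, was broken to a target size of 150 bases and carried no chromatin, so the measurement is of binding to bare DNA in a tube. DSX enriched 4 libraries, and luciferase, the study's control protein without DNA binding, was used for 3 libraries from the same kind of DNA. The deposited files were 1 list of peaks and 1 table of binding sites for the whole series. Values per library were not analysed here. Sequencing depth is therefore unknown, no spread between replicates could be had, and DSX libraries whose names hold F or M, letters the labels do not explain, were not kept apart.

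DSX is the last step of sex determination in insects, where male and female forms of the protein act on genes in different ways. It belongs to the DM-domain proteins, which bind DNA as dimers at a short, nearly palindromic sequence. In other insects, closely spaced DSX sites are known from regulatory DNA, as in the fat body enhancer of the Drosophila yolk protein genes. Whether any cluster here lies in regulatory DNA was not analysed, because the scaffolds could not be set against genes. In the text below, a site is a 12-base match to the motif in the authors' table, given to the nearest summit, and matches to a common core on both strands are counted as 1 site. Peak strength is the authors' −log10 of the q (or p) of a peak, and positions are counted from 1 on RefSeq scaffolds of a genome build that the sources used here do not name.

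The sequences that neighbouring peaks had in common are shown first, because the clusters with repeated copies turn on them. Each is read 5′ to 3′ on its own listed strand, with the 7-base core in capitals.
NW_022279624.1, 11 copies in 3 neighbouring clusters: atACATTGTatg
NW_022279591.1, 2 copies in 1 cluster, 6 in the run it belongs to: ttACATTGTatg
NW_022279589.1, 2 copies: atACATTGTatc
NW_022279659.1, 2 copies: atACATTGTttc
NW_022279652.1, 2 copies: atACAATGTtct
NW_022279592.1, 2 copies: caACTTTGTttc
NW_022279606.1 and NW_022279651.1, several copies in each of 2 clusters: atACAATGTttc
Partner of the last sequence, TA form: taACAATGTtga
Partner of the last sequence, TT form: ttACAATGTtga
The partners differed from each other by A2T, counted from 1 at the 5′ end of the TA form. The core appeared as ACATTGT or as its reverse complement ACAATGT in all of these but 1, where it was ACTTTGT.

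Most clusters were plain pairs. Of the 136 clusters, 126 held 2 peaks, 9 held 3 and 1 held 5. Clusters spanned a median of 2619 bases from first to last summit, from 224 bases to 8109 bases. The 148 gaps between neighbouring summits had a median of 2269 bases, and 35 of them were under 1000 bases. They were spread over the whole range up to the limit, with 14 gaps under 500 bases, 21 from there to 1000, 44 from 1000 to 2500, and 69 from 2500 to 5000 bases. Gaps went on past the limit, with 126 pairs from 5000 to 10000 bases apart. The 3 pairs just inside it lay 4932, 4946 and 4985 bases apart, with summits at 9864207 and 9869139 of NW_022279598.1 (strengths 3.25 and 3.02), at 10506479 and 10511425 of NW_022279611.1 (7.59 and 10.04), and at 294421 and 299406 of NW_022279630.1 (4.69 and 9.86). The 3 pairs just outside lay 5003, 5011 and 5032 bases apart. The first of these had summits at 1317588 and 1322591 of NW_022279625.1 (6.80 and 65.5), and the other two belonged to the runs of 1 sequence on NW_022279624.1 and NW_022279591.1 described below.

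**Figure D1:**
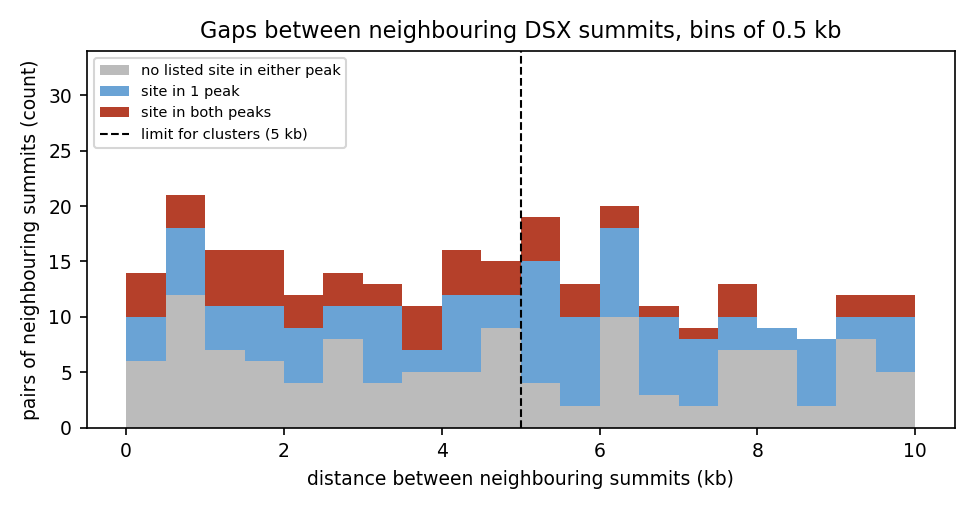
Number of pairs of neighbouring summits (y axis, count) by the distance between them (x axis, kb, bins of 0.5 kb up to 10 kb), coloured by how many peaks of the pair held a listed site. The dashed line marks the limit of 5 kb, and the 148 pairs to its left are those inside clusters.

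The 5 closest pairs lay 224 to 321 bases apart. The closest of all, at 282056 and 282280 of NW_022279602.1, was weak (strengths 3.46 and 2.59) and held no listed site. The next, 248 bases apart at 92265 and 92513 of NW_022279615.1 (2.66 and 4.91), held a site in its second peak, and the one after that, 263 bases apart at 3738245 and 3738508 of NW_022279634.1 (2.59 and 3.19), held none. A gap of 309 bases separated summits 3024064 and 3024373 of NW_022279617.1 (48.7 and 4.07), in a cluster with repeated sites. The fifth, 321 bases apart at 4323030 and 4323351 of NW_022279638.1 (10.4 and 23.7), again held no site. Gaps as short as these were thus resolved in weak and in strong peaks, with and without a site.

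Clusters were found on many scaffolds. NW_022279606.1 held the most, 10 clusters with 20 of its 152 peaks. NW_022279624.1 held 5 clusters with 15 of its 47 peaks, and NW_022279588.1, NW_022279591.1 and NW_022279617.1 also held 5 clusters each.

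As a group, clustered peaks had strengths close to those of the other peaks. Their median strength was 6.18 (quartiles 3.51 and 10.7, range 2.01 to 168), against 5.64 (3.46 and 10.3, range 2.01 to 169) for peaks outside clusters. The difference of the medians was 0.54, with an interval of -0.34 to 1.31 from the exact order statistics of the clustered median. Of the clustered peaks, 83 (29.2%, exact 95% binomial interval 24.0 to 34.9) had a strength over 10, where 26.4% of all peaks did. At the weak end, 17.3% of the clustered peaks and 17.1% of the others had a strength under 3. At the very top of the list, 7 of the 20 peaks with a strength over 50 were clustered, where 12.3% of all peaks were.

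Within a pair, strengths were mostly unequal. In the 126 clusters of 2 peaks, the stronger peak had a median strength of 9.22 and the weaker a median of 3.86, as any choice of the larger and the smaller of 2 values will separate them. The stronger value was a median of 1.92 times the weaker one. In 45 pairs (35.7%) the values lay within 1.5 times of each other, and in 30 pairs (23.8%) they were more than 3 times apart. Both peaks had a strength over 10 in 18 pairs, 1 peak did in 38, and neither did in 70, where 26.4% of all peaks did. These ratios and counts were not computed for neighbours farther apart, so they describe the pairs and are not shown to be particular to clusters. Across the 148 neighbour pairs in clusters, the strengths of the 2 summits had a Spearman's rho of 0.207, and across the 2078 neighbour pairs farther apart rho was 0.0402. These are descriptions over pairs that share libraries, and pairs in a chain share a peak. Without the 3 clusters of the run on NW_022279624.1, rho in the remaining 140 pairs was 0.199.

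**Figure D2:**
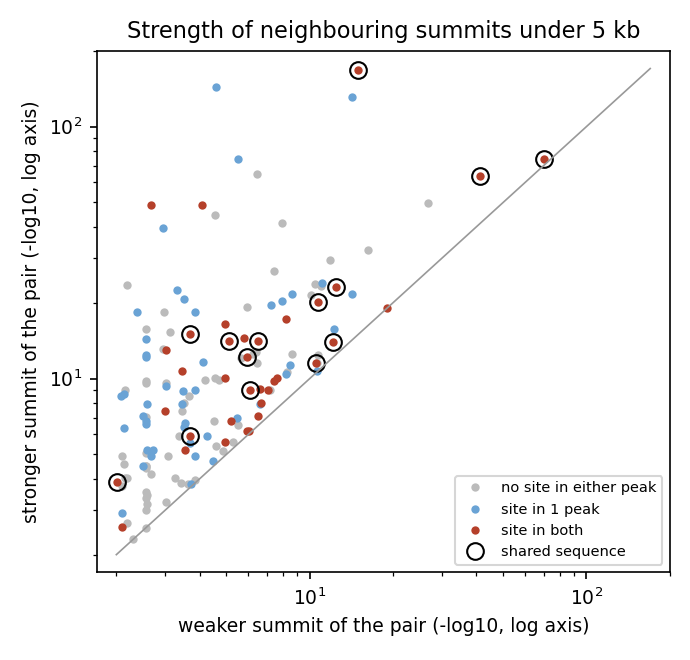
Strength of the weaker (x axis) and the stronger (y axis) summit of each of the 148 neighbour pairs under 5 kb, both as the authors' −log10 value on log axes. Colours give the number of peaks with a listed site, black rings mark the 14 pairs with a shared sequence, and the line marks equal strength.

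Clustered peaks held a listed DSX site about as often as the list as a whole. A site was listed in 112 of the 284 (39.4%, exact 95% interval 33.7 to 45.4), where 37.9% of all peaks and 37.7% of the peaks outside clusters held one. The intervals in this report cover counting error only, and peaks of a cluster are not independent of each other. The 112 peaks held 130 of the 952 distinct sites. With 2 or more sites there were 14 clustered peaks (4.93%, 2.72 to 8.13), against 49 peaks outside clusters (2.42%, 1.80 to 3.19). The 14 include peaks of the clusters with repeated sites described below, on NW_022279606.1, NW_022279651.1, NW_022279617.1 and NW_022279624.1. Outside clusters, 4 loci with the paired sites described below are counted too. The shares without these loci were not computed. The median strength was 7.75 for clustered peaks with a site and 4.78 for those without one, and outside clusters the values were 7.51 and 4.48.

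The sites themselves had similar cores and scores inside and outside clusters. All were listed as matches to the same motif, found in these same peaks, so this likeness was partly set by the listing. The core ACAATGT, in either direction, made up 85.4% (78.1 to 91.0) of the clustered sites and 84.1% (81.4 to 86.5) of the others, and the form ACAAAGT or ACTTTGT made up 12.3% and 13.9%. Median match scores were 14.6 in both sets, and 52.3% of the clustered sites and 56.6% of the others were listed on both strands. The site lay a median of 17 bases from the summit in clustered peaks and 12 bases in the others. Within 10 bases of the summit lay 42.3% (33.7 to 51.3) of the clustered sites and 47.9% (44.5 to 51.4) of the others.

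Sites were divided unevenly among the clusters. In 62 of the 136 clusters none of the peaks held one, in 44 some of the peaks did, and in 30 every peak did. Counted by neighbours, 66 of the 148 pairs (44.6%, exact 95% interval 36.4 to 53.0) held a site in neither peak, close to the 864 of 2078 pairs (41.6%) among neighbours farther apart. A site in 1 peak was found in 46 pairs (31.1%, 23.7 to 39.2) in clusters and in 852 (41.0%, 38.9 to 43.2) farther apart. A site in both was found in 36 (24.3%, 17.7 to 32.1) and 362 (17.4%, 15.8 to 19.1). Without the run on NW_022279624.1 described below, 29 of 140 pairs in clusters held a site in both. In the 46 pairs with a site in 1 peak, the peak with the site was the stronger in 31 (67.4%, exact 95% interval 52.0 to 80.5). Among neighbours farther apart it was the stronger in 628 of 852 (73.7%, 70.6 to 76.6).

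Where both neighbours held a site, they often held the same one. The same 12-base sequence was present in both peaks of 14 of these 36 pairs (38.9%, exact 95% interval 23.1 to 56.5). Among the 362 neighbour pairs with a site in both peaks and summits 5000 bases or more apart, 11 shared a sequence, which is 3.04% (1.53 to 5.37). In clusters all 14 sharing pairs had their copies on the same strand, as direct repeats, and in the pairs farther apart 8 of 11 did. Of these 11, 5 belonged to the runs described below, and all 5 had copies on the same strand. Copies were on the same strand in 0 of 1 sharing pair from 50 to 100 kb and in 1 of 3 beyond that. Sharing was seen in 3 of 7 pairs under 1 kb, 7 of 13 from 1 to 2.5 kb, 4 of 16 from 2.5 to 5 kb, 4 of 18 from 5 to 10 kb and 3 of 35 from 10 to 20 kb. It was seen in 0 of 66 pairs from 20 to 50 kb (upper 95% limit 5.44%), in 1 of 81 from 50 to 100 kb and in 3 of 162 beyond that.

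The sharing pairs were not spread over all clusters. They came from 10 of the 31 clusters with a site in 2 neighbouring peaks, and 7 of the 14 came from the run on NW_022279624.1. Without that run the share in clusters was 7 of 29 pairs (24.1%, 10.3 to 43.5). Of the 11 sharing pairs farther apart, 5 also belonged to the runs on NW_022279624.1 and NW_022279591.1. With both runs left out, 6 of 28 pairs in clusters (21.4%, 8.30 to 41.0) and 6 of 357 pairs farther apart (1.68%, 0.619 to 3.62) shared a sequence. The counts by distance above include both runs. Most of the sharing pairs from 1 to 2.5 kb, and all of those from 5 to 10 kb, belonged to them. The placement of reads that match several copies is not stated in the sources used here, and its part in the strength of these peaks was not tested.

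**Figure D3:**
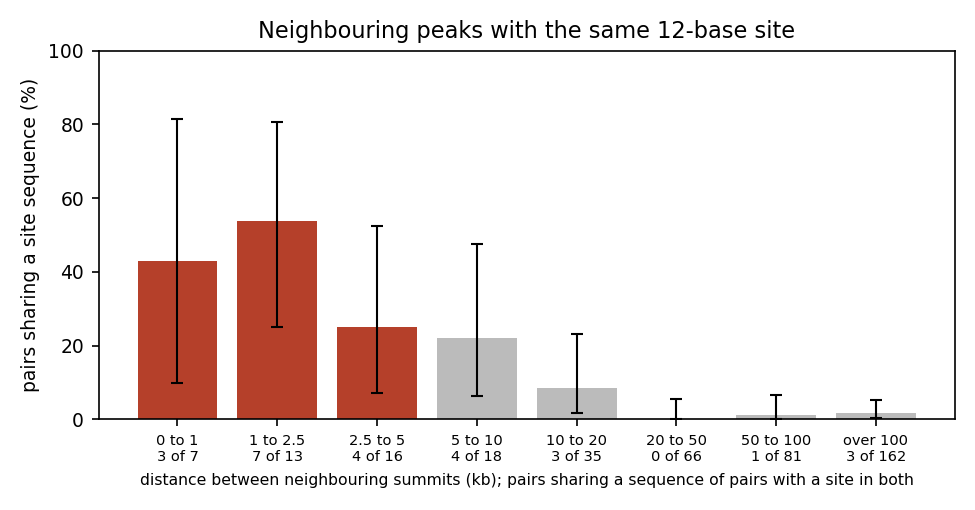
Share of neighbour pairs with the same 12-base sequence in both peaks (y axis, percent of pairs with a site in both) by the distance between the summits (x axis, kb), with exact 95% binomial intervals and the counts under each bar. Red bars are pairs inside clusters, where 14 of 36 shared a sequence, and grey bars are pairs farther apart, where 11 of 362 did. The runs on NW_022279624.1 and NW_022279591.1 are included.

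The run with the most copies was on NW_022279624.1, where 10 peaks in 3 neighbouring clusters held 11 copies of atACATTGTatg (score 15.7, q = 0.00551), all on the minus strand, over 25.3 kb. It includes the 1 cluster of 5 peaks in the list. All 11 copies of the sequence that the table lists on this scaffold lay in the run. The first cluster had summits at 1233934 (strength 69.96), 1234741 (74.5) and 1235500 (5.49), with copies centred at 1233919, 1234539 and 1234746 and no listed site in the third peak. The second had summits at 1242762 (6.53), 1244656 (14.2) and 1246088 (5.103), with 1 copy in each peak. The third had summits at 1251099 (14.0), 1252978 (12.1), 1254399 (5.92), 1255839 (3.68) and 1259208 (15.02), again with 1 copy in each.

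Peaks with the identical 12 bases thus had strengths from 3.68 to 74.5 in this run, with a median of 13.1. The 2 strongest stood side by side at its first end, and all 8 others had a strength of 15.02 or less. Bases next to the copies were not analysed here, so the copies are known to be identical over these 12 bases only.

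The copies on NW_022279624.1 recurred at exact steps. In the second cluster they stood 1870 and then 1455 bases apart. In the third cluster the steps were 1870, 1455, 1455 and 3325 bases, the last being the sum of 1870 and 1455. The step between these 2 clusters was 4993 bases, and the first cluster had steps of 620 and 207 bases. The peaks reached by a step of 1455 bases had strengths of 5.103, 5.92 and 3.68, with the copy 32, 39 and 54 bases from the summit. The peaks reached by a step of 1870 bases, or of 3325 bases, had strengths of 14.2, 12.1 and 15.02, with the copy 9, 5 and 10 bases from the summit. Among these peaks, the weaker ones were therefore those whose summit stood farther off the copy. This split was noticed in the values and rests on 6 peaks.

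A weaker run, longer but with fewer copies, lay on NW_022279591.1, with 6 copies of ttACATTGTatg (score 14.3, q = 0.00924) on the plus strand in 6 peaks over 37.4 kb. Their summits were at 4642109 (strength 4.69), 4647632 (7.44), 4652664 (3.88), 4654952 (2.01), 4659991 (2.86) and 4679498 (8.95). The steps between copies were 5517, 4945, 2277, 5142 and 19503 bases, so no step recurred, and 3 of the 6 peaks met the rule for clusters. The peak at 4654952 was the weakest of all clustered peaks. In the pair at 4652664 and 4654952 the copies lay 93 and 104 bases before their summits, where the median over clustered sites was 17 bases. In the other peaks of this run the copy lay 0 to 6 bases before the summit. The weak peaks at 4642109 and 4659991 were among these, so weak peaks here stood both on and off their copy. The peak at 4642109 was the last of a cluster of 3, and its neighbours at 4635367 (2.56) and 4638049 (4.48) held no site.

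**Figure D4:**
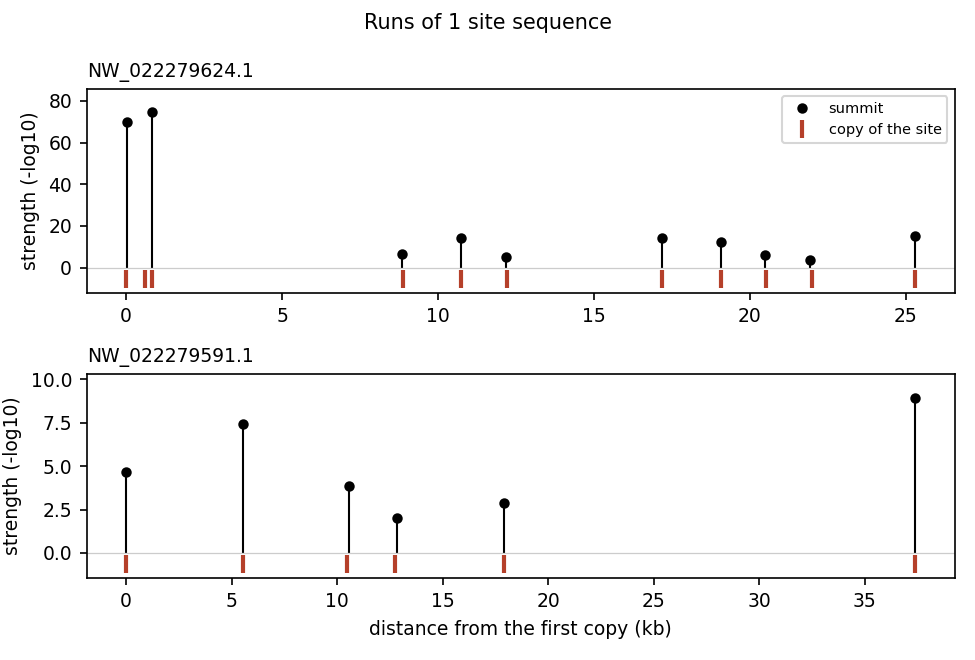
Strength of the peaks that hold a copy (y axis, the authors' −log10 value, black) and place of each copy of the site (red ticks) against the distance from the first copy (x axis, kb), for the run of 11 copies on NW_022279624.1 (top) and of 6 copies on NW_022279591.1 (bottom). The 2 peaks at the start of the upper run stand at 69.96 and 74.5 and the other 8 at 15.02 or less.

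The remaining sharing pairs outside these runs and outside the paired sites below were single repeats. On NW_022279589.1, summits 511352 (strength 12.4) and 513908 (23.2) both held atACATTGTatc on the plus strand, with the copies 2558 bases apart and the summits 2556. On NW_022279659.1, summits 131266 (10.7) and 135507 (20.1) both held atACATTGTttc on the minus strand, which no other sequence in the table outscored (18.45), with the copies 4237 and the summits 4241 bases apart. On NW_022279592.1, summits 3447065 (10.5) and 3451177 (11.5) both held caACTTTGTttc on the minus strand, a weak match (score 10.7), with copies 4107 and summits 4112 bases apart. In these 3 pairs the summits repeated the spacing of the copies to within 5 bases. On NW_022279652.1, summits 324246 (9.04) and 325339 (6.08) both held atACAATGTtct on the plus strand (score 11.7), with copies 992 and summits 1093 bases apart. The sequence caACTTTGTttc was listed at 6 places in the whole table and atACAATGTtct at 3, of which these pairs held 2 each. The others were commoner. The sequence atACATTGTatc was listed at 14 places, 12 of them outside clusters, and atACATTGTttc at 55, 50 of them outside clusters.

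Clusters on 3 scaffolds held a different arrangement, in which the strongest clustered peak of the list also stood. It was a pair of sites on opposite strands with their cores centred 11 bases apart, atACAATGTttc and a partner in its TA or TT form. The 12-base matches overlapped by 2 bases, which agreed in all 14 such pairs in the table, so that they could be joined to 22 bases, shown here with both cores in capitals.
TA unit, 8 places: taACAATGTtgaaACATTGTat
TT unit, 6 places: ttACAATGTtgaaACATTGTat
Around a spacer of 2 bases the TA unit read as an inverted repeat with arms of 8 bases, and the TT unit as one with arms of 9 bases. The 14 units lay at 7 loci, of which 3 were clusters with 7 units and 4 were peaks outside clusters.

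The units stood in tandem at fixed steps. In the cluster on NW_022279651.1, with summits at 2707972 (strength 168) and 2708358 (14.98), units lay at 2707612 to 2707633 (TT), 2707964 to 2707985 (TA) and 2708312 to 2708333 (TT), at steps of 352 and 348 bases. In the cluster on NW_022279606.1, with summits at 9007738 (63.9) and 9008433 (41.4), they lay at 9007723 to 9007744 (TA), 9008075 to 9008096 (TT) and 9008423 to 9008444 (TA), again at steps of 352 and 348 bases. In the cluster on NW_022279617.1, with summits at 3023687 (2.67), 3024064 (48.7) and 3024373 (4.07), 1 TA unit at 3024058 to 3024079 stood between 2 TT-form sites centred at 3023715 and 3024415. These are 348 bases before and 352 bases after its own TA-form site, centred at 3024063, and no partner was listed beside them. Outside clusters, a TA and a TT unit 352 bases apart were found in the strongest peak of the whole list, at 5110392 of NW_022279649.1 (169), in the peak at 7100428 of NW_022279592.1 (75.6), and likewise at 18874227 of NW_022279606.1 (56.9). The peak at 9163819 of NW_022279649.1 (38.6) held a single TA unit. Such a locus therefore counted as a cluster where a further summit was listed. That summit stood by another unit on NW_022279651.1 and in the cluster on NW_022279606.1. On NW_022279617.1 the further summits stood by TT-form sites without a listed partner.

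In the table, the summits stood on the TA units. The table lists sites near called peaks, at most 358 bases from a summit, so a TA unit far from any peak would not be in it, and the counts hold for listed units only. All 8 listed TA units had a summit within 50 bases of their middle, at 0.5 to 6.5 bases, with strengths from 38.6 to 169. Of the 6 listed TT units, 1 had a summit within 50 bases, the one on NW_022279651.1 with a strength of 14.98, where the TA unit 348 bases away had 168. The other 5 lay 345.5 to 352.5 bases from the nearest summit. The 3 TT-form sites without a listed partner had weak summits near them, 2.67 and 4.07 on NW_022279617.1 and 2.56 at 778792 of NW_022279626.1, the last outside clusters. The TT form had the higher match score, 12.4 against 9.72 for the TA form. The units differed by A2T over the 22 bases, and the bases between units were not analysed here. The list gives 1 base per peak, so fragments that cover a TT unit without a summit of its own could not be seen. The comparison of the forms was made after their values were seen.

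**Figure D5:**
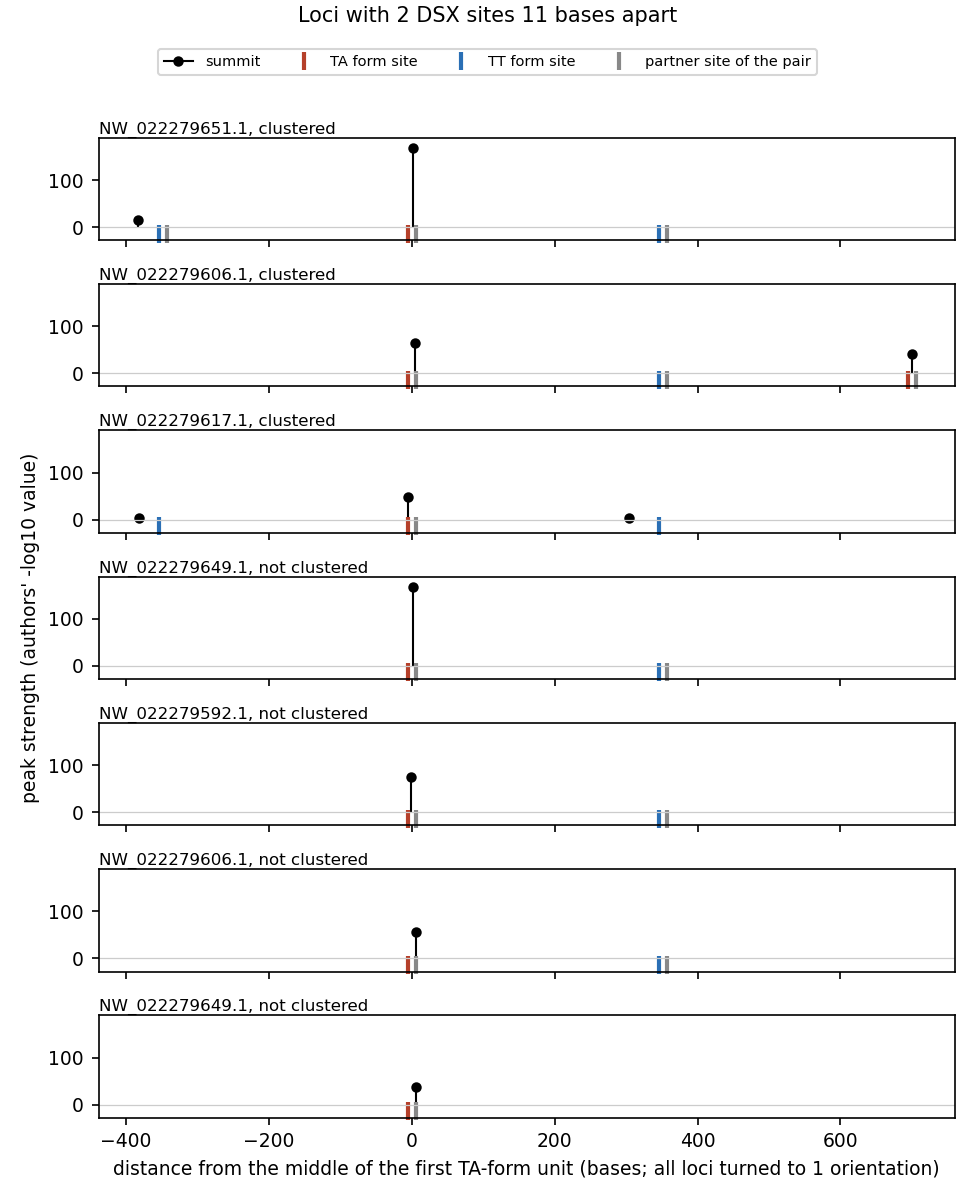
Peak strength (y axis, the authors' −log10 value, black summits) and sites (ticks) at the 7 loci with 2 sites 11 bases apart, by distance in bases from the middle of the first TA unit (x axis), with all loci turned to 1 orientation. Summits stand on the TA-form sites (red) at each of the 8 listed TA units. The TT-form sites (blue) have beside them either no summit or one weaker than those on the TA units, of strength 14.98 or less.

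Apart from those described, the strongest clusters held a strong peak with a site and a much weaker neighbour without one, or no site at all. On NW_022279652.1, the peak at 1019681 (strength 144) held 1 site, and its neighbour 525 bases away at 1019156 (4.57) held none. On NW_022279591.1, the peak at 3357324 (131) held 1 site, and its neighbour 1855 bases away at 3355469 (14.2) held none. The other 4 of the 10 clusters with the strongest peaks held no listed site in any peak. These were the pair at 690965 (6.43) and 693647 (64.6) of NW_022279631.1, the pair at 586817 (4.56) and 591075 (44.8) and the pair at 1720481 (41.3) and 1725337 (7.94) of NW_022279629.1, and a cluster of 3 on NW_022279655.1. The last had summits at 86124 (49.9), 87837 (26.8) and 91108 (7.45), all without a site. Over the 62 clusters with no site, the strongest peak had a median strength of 8.76, against 9.22 over all 136 clusters, which include these 62. The clusters with a site were not summarised apart. A weak cluster of 3 without sites, on NW_022279654.1, had nearly equal gaps of 1370 and 1367 bases between summits at 266750 (2.18), 268120 (4.04) and 269487 (3.25), and was picked out after its gaps were seen.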

How the data were processed

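DAP-seq libraries (4 DSX, 3 luciferase) were summarised by the authors in 1 pooled peak list and 1 table of sites. Without giving settings, MACS2 2.2.5, bedtools 2.28.0 and Bowtie2 2.3.5.1 are listed in the submitters' processing notes. The deposited peak list gives 1 base per peak with a −log10 of a q-value or p-value, which of them is not stated, with a lowest value of 2.01. The deposited site table gives each match a score and a q-value, made with FIMO 5.1.0 from a motif that MEME found in these same peaks, per the file's footer. An offset of 1 base between the files cannot be told from the files.

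Matches were given to the nearest summit and opposite-strand matches over the same core joined, keeping the better score. Sharing means an identical 12-base sequence, each copy read on the strand kept for it, whether or not these strands were the same. Chaining and sharing were checked on simulated data. Shares have exact (Clopper-Pearson) 95% intervals. No test was run. Peaks and lists were chosen with earlier results of these data known, the 11-base units and the runs included. Clusters were named by size, by strongest peak, by closeness, by shared sequence and at the limit. None of the scaffold names (0 matched) occurs in the RefSeq gene table used here, so genes were not assigned. Depth per library is unknown. Software was scipy 1.17.1, pandas 2.3.3, numpy 2.4.6 and matplotlib 3.10.9 under python 3.11.15.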

Additional observations from a re-analysis of the deposited data

How the results depend on the processing

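Of 60 recomputed values, 47 stayed within the interval of the value reported or within 1.5 times the count, under 12 settings, of which 2 (without the run on NW_022279624.1, and without clusters with paired sites 11 bases apart) were added after seeing the data. The numbers of clustered peaks, clusters and clusters of 3 or more peaks follow the limit by construction. They were 151, 72 and 6 with summits under 2500 bases apart, and 508, 234 and 25 under 10000 bases. In the stronger part of the list, which holds fewer peaks, they were 101, 49 and 2 at the unchanged limit. The share of clustered peaks with a listed site was 54.5% in the stronger part of the list, where 49.7% of all peaks held one, and 26.1% with matches of q 0.01 or less, where 23.0% of all peaks did. The share of site-bearing neighbour pairs with a shared sequence was 63.2% (12 of 19 pairs) with those matches, and from 24.1% to 50% under the other settings. Of the 12 pairs, 7 belonged to the run on NW_022279624.1 and 1 to the run on NW_022279591.1, whose matches pass the q limit. The share among neighbours farther apart was not computed at this q limit. Copies of sharing pairs were on the same strand in all pairs under every setting run. The median strength of clustered peaks exceeded that of the others by 3.58 when each cluster was given by its strongest peak, since that choice takes the larger value, and by 0.217 to 0.54 under the other settings. No paired analysis was possible because the files pool the libraries, and leaving out each replicate was not run for the same reason. Depth is unknown, which leaves unknown how many weak neighbours deeper sequencing would show.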
